A study of Rattus norvegicus with 16 samples.

Results

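The 8 untreated controls of rat hepatocytes in a study of 2 cholesterol-lowering agents were described by the brightness of each transcript on microarrays. Primary hepatocytes of male Sprague Dawley rats were kept in Williams Medium E, and in the treated cultures 100 µM SQ1 or 30 µM pravastatin was present for 48 hours, beginning 48 hours after plating. Each of the 16 arrays paired RNA of 1 treated culture in one dye with RNA of 1 untreated culture in the other. The members are the 16 untreated measurements among the 32 channel measurements of the series, chosen by the dye that the labels give to the untreated RNA. The deposited scanner files number the untreated samples, and each number occurs on 1 array with SQ1 and 1 with pravastatin, so the 16 measurements were counted as 8 controls. Controls 1, 2, 13 and 14 were labelled with A555 and controls 3, 4, 15 and 16 with A647. If they were collected together with the treated cells, which the labels do not state, the untreated cells had been in culture for 96 hours, or 4 days. The labels name no animal or isolation, so the spread between controls may be technical in part. No freshly isolated hepatocytes are among the samples, so whether a level was kept or lost since isolation was not tested.

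Hepatocytes make most plasma proteins, carry the urea cycle and gluconeogenesis, synthesise bile acids and metabolise drugs through cytochromes P450 and conjugating enzymes. In monolayer culture they are known to flatten, to build up actin, tubulin and keratin networks and to lose part of their cytochromes P450 over days. A hepatocyte preparation also holds some macrophages (Kupffer cells), sinusoidal endothelial cells, stellate cells and bile duct cells.

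Brightness was the Agilent processed signal, ranked among up to 30367 probes within each untreated channel. It is given as a percentile, or as a place where place 1 is the brightest probe, averaged over the 2 arrays of a control and then over controls (mean ± SD, n = 8). Probes differ in how well they bind, so an order of places is an order of brightness and not of RNA molecules. In bulk RNA, fewer cells of a type and less RNA per cell cannot be told apart. Of 15154 genes with a symbol, 67.7% were well above background in all 16 measurements and 11.2% in none, and their median percentile was 57.5. Negative control spots lay at a median percentile of 3.03 to 11.4 across arrays, and no spot was saturated. On all 16 arrays, 4 sterol synthesis genes (Idi1, Sqle, Hmgcs1 and Acat2) were brighter in the treated channel, which goes with the labelled dyes. The 2 arrays of a control correlated at 0.983 to 0.994 (median 0.992), against a median of 0.991 for different controls of the same dye and scan day across the drug sets. The median difference in percentile per probe was 0.781 for the 2 arrays of a control and 1.09 for those of different controls. Different controls of the same dye on the same slide had medians of 0.993 and 0.687. They were thus slightly more alike than the 2 arrays of a control, which lie on different slides.

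Hepatocyte markers were among the brightest transcripts. Alb, serum albumin, took place 10 to 28.5 with a median of 16, and Ttr, the carrier of thyroid hormone and retinol, place 13.5 to 42.5 with a median of 25.8. Cyp2c11, the male-specific steroid hydroxylase, lay at place 56.5 to 218.5 with a median of 140. Apoa1, the main protein of high density lipoprotein, lay at place 139 to 507 with a median of 168.5, and control 1 was the dimmest. All 4 were within the top 2 percent of probes in each control. The macrophage genes C1qb, a subunit of complement C1q, and Lyz2, lysozyme, were lower but clearly present, at the 92.3rd to 94.7th and the 91.3rd to 93.5th percentile.

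Secreted plasma proteins led the signal. Of the 30 brightest genes with a symbol, 16 belonged to 4 lists of secreted proteins that had 73 measured members, and 27 did so among the 100 brightest. Hp, haptoglobin, which binds free haemoglobin, was the brightest at a mean place of 4.19 (3 to 5 over the controls). Ambp, the precursor of alpha-1-microglobulin and bikunin, followed at 4.69 (4 to 5.5). Orm1, the acute phase orosomucoid, stood at 7 (3 to 15) and Mt1, the metal-binding metallothionein, at 7.06 (3.5 to 15). Tf, transferrin, the plasma iron carrier, was at 11.1 (8 to 17). The order of these 5 genes overlapped between neighbours, since the range of each met that of the next.

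The rest of the 30 brightest were plasma proteins and intracellular genes. Plasma carriers included Rbp4, the retinol carrier, Hpx, the haem carrier, Apoh, and Gc, the vitamin D carrier, all at mean places between 22.8 and 38.0. Acute phase genes included Serpina3n and Itih3, and lipoprotein genes included Apoe and Apoc3. Fgb, a fibrinogen chain, and C3, the central complement component, were at mean places 43.6 and 48.1. Intracellular genes among the 30 were Mt2A, Arg1 (the last enzyme of the urea cycle), Scd (a fatty acid desaturase), Sult1b1 and Gsta1 (conjugating enzymes), Ctsb (a lysosomal protease), Actg1 (cytoskeletal actin), Rpl41 (a ribosomal protein), Tpt1 and Ppial4g. Inhca and Mug1, a proteinase inhibitor of rat plasma, were also among them. Of the 30, 16 were among the 30 brightest in all 8 controls at once, and 49 genes were among the 30 brightest in at least 1 control. Among the 30 brightest probes of any kind 7 have no symbol here, and among the 100 brightest 22.

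**Figure D1:**
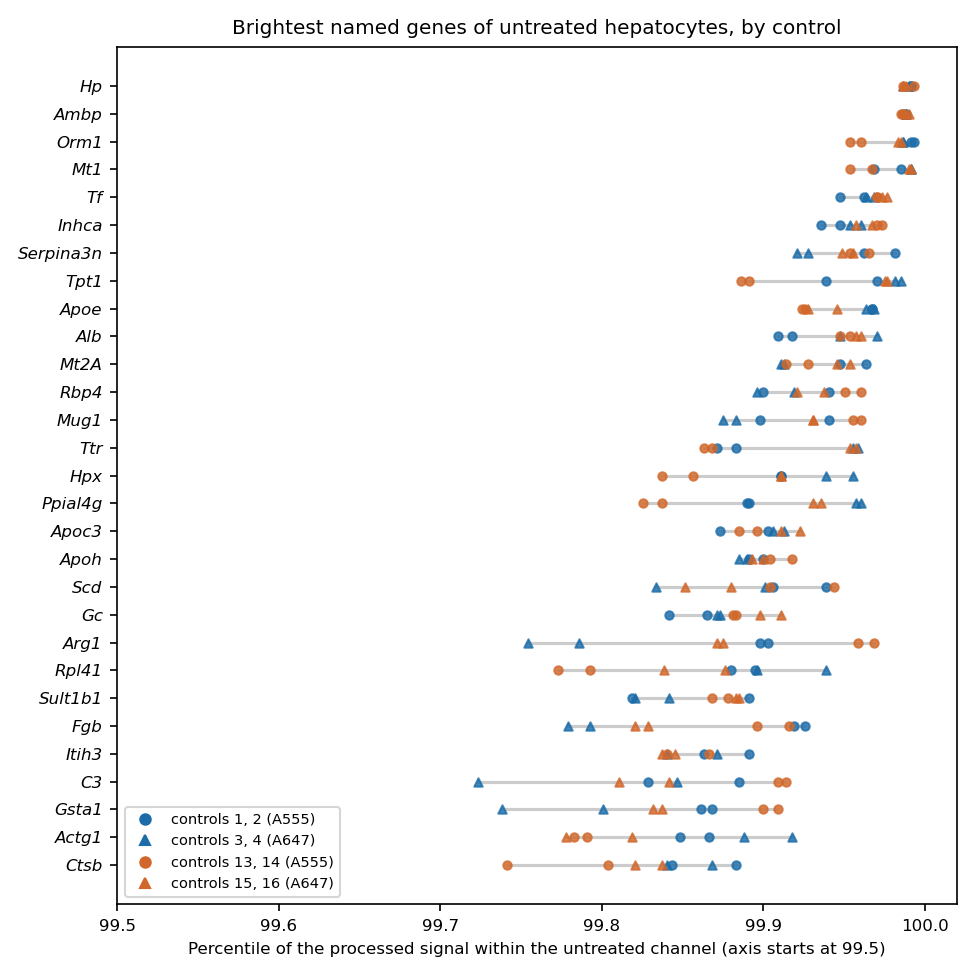
Percentile of the processed signal within the untreated channel (horizontal axis, from 99.5) for the brightest named genes shown, 1 point per control, with colour for the control numbers and shape for the dye; grey lines span the 8 controls. Hp and Ambp stay within a narrow range at the top, whereas Arg1, C3 and Gsta1 spread more widely.

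The signal was spread over many probes. The 10 brightest probes held 1.71% ± 0.13 of the summed signal (SD, n = 8 controls), the 100 brightest 11.2% ± 0.74 and the 1000 brightest 53.2% ± 1.23. Ribosomal proteins followed the plasma proteins: 23 of 80 measured were among the 100 brightest genes, 43 were above the 99th percentile, and their median was 99.1. Only 3 of them lay below the 50th percentile, with Rpl27l2 lowest at 10.1.

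Promoter sequences of bright genes are shown because some hold a TATA box near the start and others a GC box. RefSeq (assembly GRCr8) gave windows of 250 bases before to 50 after the start for 12384 of the 15154 named genes, and for 83 of the 100 brightest. Printed 5′ to 3′ on the gene's strand are the 120 bases before the start of 5 bright genes: Orm1 (chr5:81788389-81788508, plus strand), Mt1 (chr19:10832976-10833095, minus strand), Cyp2c11 (chr1:246175096-246175215, plus strand), Rpl41 (chr7:1563498-1563617, minus strand) and Actg1 (chr10:106120952-106121071, minus strand). Capitals mark TATAAA, the TATA box, and GGGCGG, the GC box, on either strand.
Orm1: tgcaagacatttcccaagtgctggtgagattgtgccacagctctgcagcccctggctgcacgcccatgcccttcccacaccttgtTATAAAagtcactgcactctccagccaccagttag
Mt1: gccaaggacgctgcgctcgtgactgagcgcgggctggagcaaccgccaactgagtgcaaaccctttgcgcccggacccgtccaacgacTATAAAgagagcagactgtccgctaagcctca
Cyp2c11: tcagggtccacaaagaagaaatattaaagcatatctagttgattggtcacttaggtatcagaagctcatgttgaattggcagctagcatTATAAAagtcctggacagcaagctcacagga
Rpl41: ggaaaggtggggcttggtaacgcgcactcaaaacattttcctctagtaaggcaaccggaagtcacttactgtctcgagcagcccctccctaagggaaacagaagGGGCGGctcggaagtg
Actg1: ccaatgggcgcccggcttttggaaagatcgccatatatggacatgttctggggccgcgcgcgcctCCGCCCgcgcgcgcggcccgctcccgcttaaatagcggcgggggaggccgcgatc

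In Orm1, Mt1 and Cyp2c11 the TATAAA began 35, 32 and 31 bases before the start, and the 120 bases of Cyp2c11 held 0 CG pairs against 19 in Actg1. Other bright genes differed: the 120 bases of Alb, Ttr and Ambp held no TATAAA, and that of Tf began 52 bases before the start. On the gene's strand, TATAAA began 40 to 20 bases before the start in 14 of the 83 windows of the 100 brightest genes (16.9%) and in 1.93% of all 12384. It did so in 5 of the 51 windows of the 4 secreted protein lists (9.80%). Anywhere in the window and on either strand, TATAAA was in 30.1% of the 83 and 12% of all. GGGCGG was in 38.6% of the 83 and 49.1% of all, and in 56.9% of 65 ribosomal protein windows and 15.7% of 51 windows of the 4 secreted protein lists. The median window held 22 CG pairs for ribosomal proteins, 4 for the secreted proteins and 16 over all. CCAAT was in 41.0% of the 83 and 38.3% of all. Exact matches on either strand to CAAAGTCCA (HNF4) and TTGCGCAA (C/EBP) were in 0 of the 83 windows, and in 0.420% and 0.242% of all. A match is a description of these letters and not a binding site.

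Secreted proteins were bright as lists. Of 15 plasma carriers 10 were above the 99th percentile (list median 99.9), and the 2 dim members were Serpina6, the corticosteroid carrier, at 29.6 ± 5.23 and A1bg at 15.9 ± 7.2. Of 28 coagulation and complement genes all were well above background in all 16 measurements, with a median of 96.7. They ranged from Fgb and C3 down to F7, coagulation factor VII, at 70.3 ± 0.53. The 14 acute phase genes had a median of 99.4, with Hamp, the iron hormone hepcidin, at 99.4 ± 0.25, Lcn2, lipocalin, at 99.3 ± 0.12 and Crp, C-reactive protein, at 91.4 ± 1.36. Of 16 apolipoprotein and lipoprotein genes (median 95.6) 15 were above the 75th percentile, and all were well above background in all 16 measurements. Iron and metal genes were bright as well (median 99.4 over 13), with Fth1, ferritin heavy chain, at 99.8 and Mt3, the brain metallothionein, at 26.6 ± 2.42.

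Most enzymes of nitrogen metabolism were bright. Of 7 urea cycle genes 6 were above the 75th percentile. Arg1 lay at place 10.5 to 75.5 with a median of 35.5, and Cps1, the entry enzyme, at the 90.1st to 92.6th percentile with a median of 91.6. Slc25a15, the mitochondrial ornithine carrier, was dim at 22.5 ± 5.83 and well above background in 3 of 16 measurements. Of 25 genes of amino acid catabolism 24 were well above background in all 16 (median 88.4), led by Bhmt, a methyl transferase of homocysteine, at 99.8 and Tdo2, tryptophan dioxygenase, at 99.7. Sds, serine dehydratase, was the dim exception at 21.0 ± 5.84.

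Liver forms of enzymes of glucose and amino acid metabolism had a median of 93.2 (12 genes) and the widely expressed forms one of 65.5 (13 genes). Among liver forms Slc2a2, the liver glucose transporter, was at 99.5 ± 0.14 and Fbp1, of gluconeogenesis, at 98.9 ± 0.28. Pck1, the gluconeogenic carboxykinase, was the dimmest at 55.7 to 60.4 with a median of 58.1. Among the wide forms Ldha, lactate dehydrogenase, was bright at 99.8 ± 0.11. Hk1, hexokinase of most tissues, was at 61.4 ± 0.23, and Hk2 was dim at 27.3 ± 2.11, well above background in 4 of 16 measurements.

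Cytochromes P450 spread over nearly the whole range. Of 34 genes of families 1 to 3, 31 were well above background in all 16 measurements, 22 were above the 75th percentile and 4 below the 50th (median 84.4). Cyp2c13, Cyp2c11 and Cyp2c22 led, at 99.7 ± 0.10, 99.5 ± 0.21 and 99.5 ± 0.12. Cyp2e1, the ethanol-inducible enzyme of pericentral cells, lay at 69.4 to 78.5 with a median of 73.9. Cyp1a2, the caffeine oxidase, was at 65.6 ± 0.77 and Cyp3a2, a male-predominant steroid hydroxylase, at 60.5 ± 1.66. Cyp2g1, an enzyme of the olfactory mucosa, was not well above background in any measurement (7.74 ± 2.40). For Cyp2c, Cyp2d, Cyp3a, Ugt2b and Gst genes, near-identical relatives may share a probe, which makes each gene uncertain on its own. Cyp2c12, known as female-specific, read 73.9 ± 0.45 in these male cells.

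Other cytochromes P450 were led by the fatty acid hydroxylases Cyp4a3 (98.4 ± 0.24), Cyp4f1 (97.5 ± 0.16) and Cyp4a1 (95 ± 0.36). The adrenal genes Cyp11b1 and Cyp11b2, at 8.52 ± 4.66 and 17.5 ± 1.42, were each well above background in 1 of 16 measurements. Phase II enzymes had a median of 92.6 over 35 genes, with 15 above the 95th percentile. Sult1b1 and Sult1a1, sulfotransferases, and Gsta1 and Gstm1, glutathione transferases, were the 4 brightest. Sult2a2 (46.3 ± 3.08) and Ugt2b7 (37.0 ± 10.9) were the dimmest.

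Of 15 bile acid genes 10 were above the 75th percentile, with a median of 93.0. Slc27a2 and Scp2, of side-chain processing, were at 99.3 ± 0.15 and 99.3 ± 0.22, and Baat, which joins bile acids to glycine or taurine, at 99 ± 0.44. Cyp7a1, the rate-limiting hydroxylase, was at 63.0 to 66.5 with a median of 64.3, Cyp27a1, which opens the acidic pathway, at 93.0 ± 0.29, and Cyp8b1, which makes cholic acid, at 69.3 ± 1.14. Of 20 hepatic transporters 13 were above the 75th percentile. Slc10a1, the sodium-dependent uptake carrier of bile acids, lay at 94.6 to 96.0 with a median of 95.3, and Abcb11, the bile salt export pump, at 90.6 ± 0.46. Abcb1b, a drug efflux pump, was the brightest transporter at 96.2 ± 0.19. The sterol exporters Abcg5 and Abcg8 were dim, at 38.8 ± 1.11 and 8.08 ± 1.89, and Abcg8 was not well above background in any measurement.

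Transcription factors were of middling brightness (25 genes, median 70.5). Cebpb, a C/EBP factor of the acute phase, was the brightest at 98.5 to 98.8 with a median of 98.7, and Cebpa, its relative of resting hepatocytes, was at 55.0 to 56.1 with a median of 55.6. Creb3l3, Xbp1 and Nr1h4, the bile acid receptor FXR, were at 97.1 ± 0.23, 95.8 ± 0.33 and 95.3 ± 0.57, with a second probe for Nr1h4 at 73.9. Hnf4a, a core hepatocyte factor, was at 59.8 ± 0.74. Esr1, the oestrogen receptor, was the dimmest at 31.1 ± 1.44. These are orders of brightness of single probes, and no reading of factor activity follows from them.

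Zonal genes of the liver lobule were unevenly bright. The 11 periportal genes had a median of 89.1 and the 12 pericentral genes one of 63.2, against 57.5 over all named genes. Glul, glutamine synthetase of pericentral cells, lay at 82.5 to 84.2 with a median of 83.4. Lgr5 and Axin2, targets of Wnt signals in pericentral cells, were at 24 ± 4.82 (second probe at 11.9) and 19.3 ± 2.83, and Axin2 was not well above background in any measurement. In the growth hormone and IGF list (17 genes, median 76.1) Ghr, the receptor, and Igf1 were at 95 ± 0.37 and 94.9 ± 0.25 (the dimmest of 3 Ghr probes at 84.2), whereas Socs2 and Cish, targets of the receptor, were at 48.9 ± 1.52 and 44.5 ± 1.5. Of 7 fetal or oncofetal genes, Afp, alpha-fetoprotein, lay at 84.7 to 86.3 with a median of 85.1 and Cd24 at 90.0 ± 1.11. Igf2 and Igf2bp1 were not well above background in any measurement.

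Most genes of the cytoskeleton, adhesion and matrix were bright. All 38 were well above background in all 16 measurements, 32 were above the 75th percentile, and their median was 93.7. Actg1, Tmsb4x (an actin-binding peptide) and Fn1, fibronectin, were at 99.8, 99.8 and 99.7, but a second probe for Fn1 was at 65.0. Krt18, a keratin of hepatocytes, lay at 98.8 to 99.2, and Vim, vimentin, at 90.0 to 91.6. Spp1, osteopontin, was the dimmest at 53.9 ± 2.47. The 20 cell cycle genes were all well above background in all 16 measurements at a median of 63.0, led by Pcna, the replication clamp (85.0 ± 0.30), and Mcm7, a helicase subunit (82.6 ± 0.85). Ccnb1 and Plk1, of mitosis, were at 61.8 ± 0.89 and 57.4 ± 0.92. Of 17 common reference genes all were above the 75th percentile, with Tbp lowest at 77.2 ± 0.33.

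**Figure D2:**
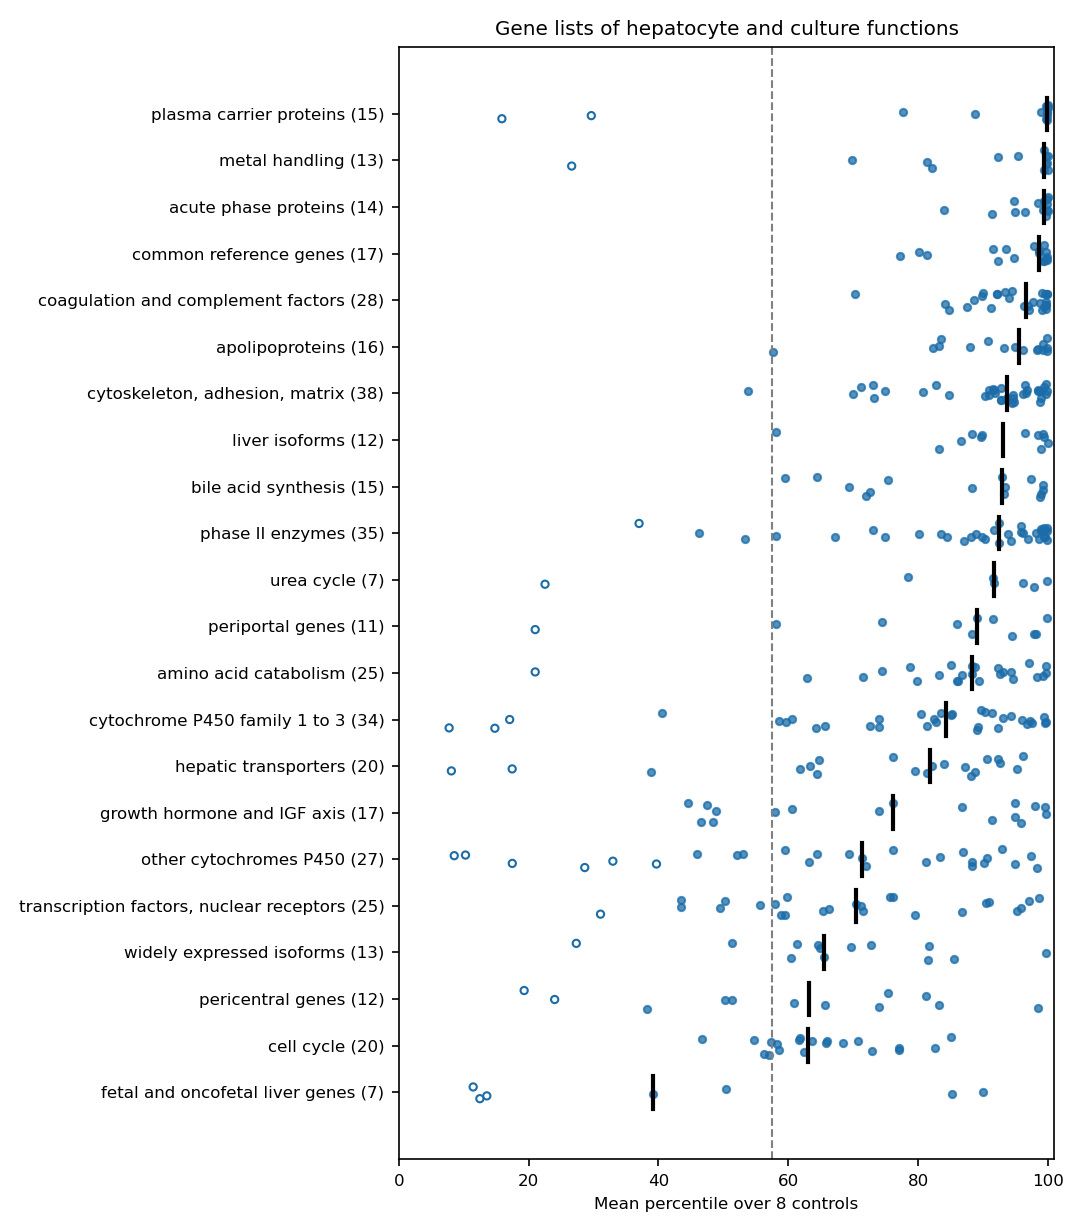
Mean percentile over 8 controls (horizontal axis) of each gene in 22 lists of hepatocyte and culture functions, with the number of measured genes in parentheses. Filled points were well above background in all 16 measurements and open points were not, black bars are list medians, and the dashed line is the median of 57.5 over all named genes. Plasma carriers, metal handling and acute phase genes lie at the right edge, and fetal genes lie lowest.

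Among markers of other cell types, those of macrophages stood out. All 22 measured were well above background in all 16 measurements, and 11 were above the 75th percentile (median 76.3). After C1qb and Lyz2 came Ctss, a lysosomal protease (90.2 ± 1.84), and Vsig4, a complement receptor of Kupffer cells (87.3 ± 1.79). Clec4f, a lectin specific to Kupffer cells, lay at 71.0 to 79.6 with a median of 74.8. Csf1r, the growth factor receptor of macrophages, was the dimmest at 55.4 to 58.3 with a median of 56.7 and a second probe at 44.1.

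Stellate cell and fibroblast markers were mixed (21 genes, median 58.3, 16 well above background in all 16 measurements). Bgn, biglycan, the collagens Col3a1 and Col1a2, and Tagln, of contractile cells, were at 91.2 ± 0.50, 89.3 ± 1.01, 89.2 ± 1.63 and 88.2 ± 2.33. A second probe for Bgn was at 60.6. Acta2, smooth muscle actin, and Lrat, the retinol-storing enzyme of stellate cells, were at 75.4 ± 2.78 and 73.1 ± 0.86, with a second probe for Lrat at 43.9. Lum, a matrix proteoglycan, was not well above background in any measurement.

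Endothelial markers lay lower, with 9 of 13 well above background in all 16 measurements and a median of 48.2. Of 20 listed only these 13 were measured. Stab1, Stab2, Clec4g, Vwf, Egfl7, Ptprb and Robo4, some of them markers of sinusoidal cells, had no probe with their symbol here. Clec14a, an endothelial adhesion molecule, was at 95.1 ± 0.38, with its second probe at 77.1. Fcgr2b and Lyve1, of sinusoidal cells, were at 69.7 ± 1.91 (second probe at 57.1) and 66.2 ± 3.58, and Pecam1 at 43.9 ± 3.05. Tek and Tie1, receptors of angiopoietins, were not well above background in any measurement. Of 12 cholangiocyte markers 8 were well above background in all 16 (median 43.6). Epcam, an epithelial adhesion molecule, was at 92.1 ± 0.69, and the bile duct keratins Krt7 and Krt19 were at 53.1 ± 0.62 and 39.2 ± 1.59. The 4 mesothelial genes included Gpm6a at 80.6 ± 0.68, with Wt1 and Msln at 49.4 ± 2.17 and 49.0 ± 2.49 and the dimmest of 3 Wt1 probes at 31.9.

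Lymphocytes and granulocytes were near the level of genes of other organs. The 18 genes of T, B and NK cells had a median of 18.4, with 5 well above background in all 16 measurements and 6 in none (Cd2, Cd3e, Cd79b, Cd247, Klrd1 and Ncr1). The 11 genes of neutrophils and mast cells had a median of 21.9, with 2 and 2. The 34 genes of brain, muscle, testis and other organs had a median of 23.6, with 11 and 9, against 67.7% and 11.2% of all named genes. Acta1, skeletal muscle actin, at 77.3 ± 4.41, and Ckm, muscle creatine kinase, at 71.5 ± 1.89 were the brightest of these, so a percentile near 75 is reached by some genes not known from the liver. Of 8 red blood cell genes 4 were well above background in all 16, with Hba-a1, a haemoglobin chain, at 74.8 ± 1.89 and its second probe at 14.4.

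**Figure D3:**
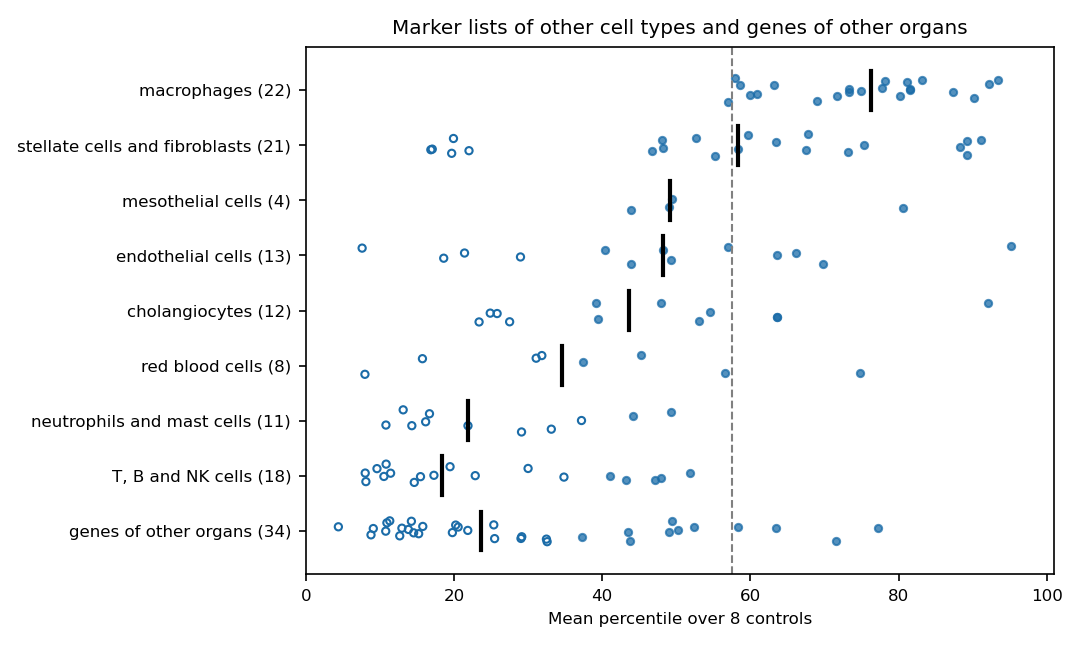
Mean percentile over 8 controls (horizontal axis) of markers of 8 other cell types and of 34 genes of other organs. Filled points were well above background in all 16 measurements and open points were not, black bars are list medians, and the dashed line is the median of 57.5 over all named genes. Macrophage markers lie highest, and those of T, B and NK cells lie as low as genes of other organs.

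The controls themselves fell into 2 sets. Controls 1 to 4 and controls 13 to 16 were scanned on different days and on different slides, so control number, scan day and slide cannot be told apart. The p-values below measure a difference against the spread within sets that each share a scan day, and that spread may be technical in part. A limma fit of the median-centred log2 signal over the 8 controls, with a term for dye, tested 20408 genes, unnamed probes counted as genes. At a Benjamini-Hochberg adjusted p under 0.05 it called 6511 (31.9%), 4048 higher in controls 13 to 16 (19.8%) and 2463 lower (12.1%). With quantile normalisation the 6200 calls split into 2634 higher (12.9% of the genes tested) and 3566 lower (17.5%). The median shift over all genes tested was 0.04 with median centring and −0.02 with quantile normalisation (log2). Most differences were small: 198 genes were called more than 2-fold higher and 128 more than 2-fold lower. On median signals with normexp background correction and median centring only 121 genes were called, and 6435 with quantile normalisation of the same signals, an alternative chosen after seeing the data. Without control 15 the count was 4008 and without control 14 it was 4303.

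A few genes were bright in one set and much dimmer in the other. Ugt2b, a glucuronosyltransferase of steroids and drugs (synonym Ugt2b2), had log2 signals of −2.02 to −1.71 around the channel median in controls 1 to 4 and of 11.03 to 11.34 in controls 13 to 16. The sets did not overlap, the difference was 13.06 ± 0.10 (SE; limma, adjusted p = 4.4e-09). A second probe was well above background only in controls 13 to 16, at least 1046-fold higher. With percentiles of 38.6 in one set and 99.9 in the other, Ugt2b was among the brightest transcripts of controls 13 to 16 and of middling brightness in controls 1 to 4. Ubd, the ubiquitin-like modifier FAT10, was the reverse. It read 7.85 to 8.11 in controls 1 to 4 and −5.28 to −5.0 in controls 13 to 16, where it was not well above background in any of 8 measurements. The bright mean was at least 2329-fold over the lowest signal counted as well above background.

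Other large differences had the same form of 4 controls against 4. Adh6, an alcohol dehydrogenase, was well above background only in controls 1 to 4, at least 16.9-fold higher. Msx3, a homeobox gene, was so only in controls 13 to 16, at least 14.5-fold higher. Ubd, Adh6 and Msx3 passed the filter on dim genes only through the set in which they were bright, so bounds without a p-value are given. Ephx2, the soluble epoxide hydrolase, read 4.00 to 4.13 in controls 1 to 4 and 0.65 to 0.80 in controls 13 to 16, or 10.1-fold less (limma, adjusted p = 3.9e-07), and was well above background in all 16 measurements. Dusp26, a protein phosphatase, fell by 5.59 ± 0.22 (limma, adjusted p = 2.8e-05). RT1-Bb, a class II antigen chain, rose by 2.06 ± 0.05 by its brightest probe (limma, adjusted p = 2.2e-06), but its second probe was well above background only in controls 1 to 4, at least 5.32-fold higher there, so the direction depends on the probe.

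Also higher in controls 13 to 16 were Sp5, Cyyr1, Mmp7 and Prcp, by 2.19 to 3.52 (log2, limma, adjusted p of 0.0005 or less). Rpl39l1, Slc4a1, Mpzl1 and Wdpcp were lower by up to 2.39 (log2, limma, adjusted p of 0.0005 or less). Ugt2b7 and Xirp2 were called higher, although well above background in only 3 and 2 of 8 measurements of controls 1 to 4. Pax6 was called lower, although well above background in only 3 of 8 measurements of controls 13 to 16. Ugt2b7, Xirp2 and Pax6 thus passed the filter only through their bright set, so no p-value is given for these calls. Mmp27 was called higher and Gldn lower, by at least 1.94-fold and at least 1.40-fold, and both passed the filter only through their bright set. With normexp, Mmp27, Xirp2, Gldn, Pax6 and Ugt2b7 lost their calls (adjusted p = 0.67, 0.65, 0.46, 0.069 and 0.097), and Gldn also within A555 (adjusted p = 0.065). Normexp gave smaller differences for dim genes, such as 1.51 for Msx3 and −2.0 for Adh6, and 11.15 for Ugt2b.

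**Figure D4:**
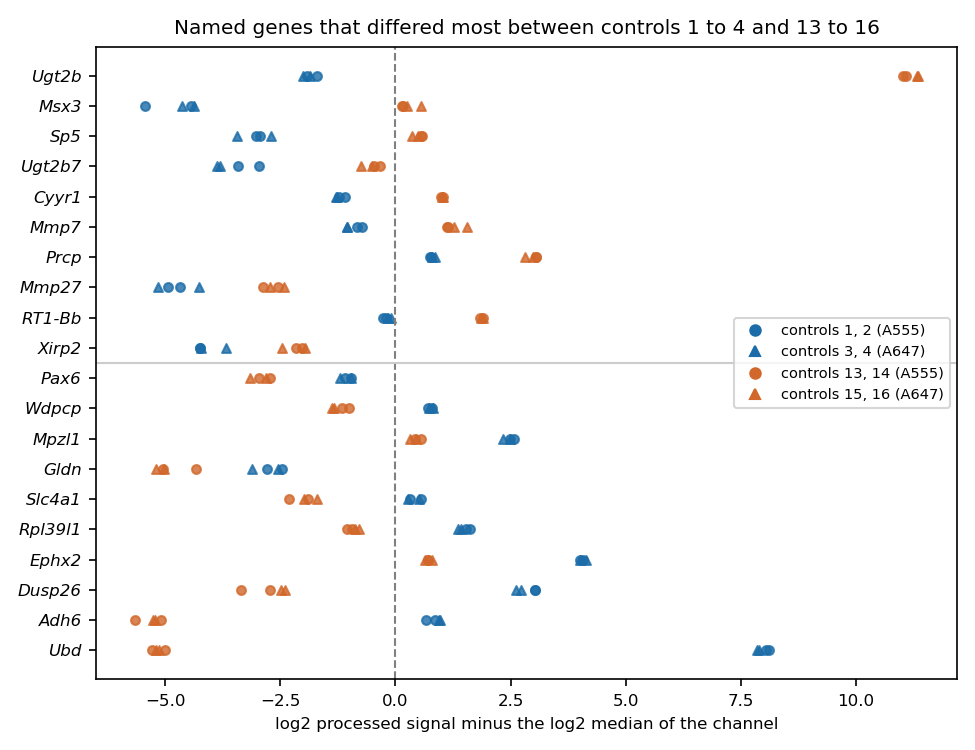
log2 processed signal relative to the channel median (horizontal axis) of the 20 named genes with the largest non-overlapping differences between control sets, 1 point per control, with colour for the control numbers and shape for the dye. Ugt2b and Ubd differ most, in opposite directions, with Ubd not well above background in controls 13 to 16, and points of the 2 dyes lie together within each set.

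All 22 macrophage genes were called higher in controls 13 to 16, against 19.8% of all genes tested. None of the 22 overlapped between the sets, and 21.5% of all genes tested were higher without overlap. Marco, a scavenger receptor, read 0.91 to 1.25 in controls 1 to 4 and 2.72 to 3.05 in controls 13 to 16, a rise of 1.82 ± 0.10 (limma, adjusted p = 8.4e-05). Cd5l, a secreted macrophage protein, rose by 1.63 ± 0.11 and Cd74, the class II invariant chain, by 1.52 ± 0.06 (limma, adjusted p = 0.00018 and 3.5e-05). C1qb and Lyz2 rose by 0.54 ± 0.06 and 0.49 ± 0.05 (limma, adjusted p = 0.0012 for both). The median rise was 0.80 over the 22 genes and 0.04 over all genes tested. The summed signal of the list, in units of the channel median, was 713 to 757 in controls 1 to 4 and 1130 to 1265 in controls 13 to 16. Sums of most hepatocyte lists were also higher without overlap, such as coagulation and complement (14841 to 17067 against 21356 to 22225). All 22 were positive under every alternative, and all 22 were called with quantile normalisation, on the arrays with SQ1 alone and on those with pravastatin alone. In these 3 settings 12.9%, 38.6% and 12.6% of all genes tested were called higher. With normexp 5 of the 22 were called, within A555 6 and within A647 16. Over all genes tested 0.48%, 0.58% and 4.40% were called higher there.

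**Figure D5:**
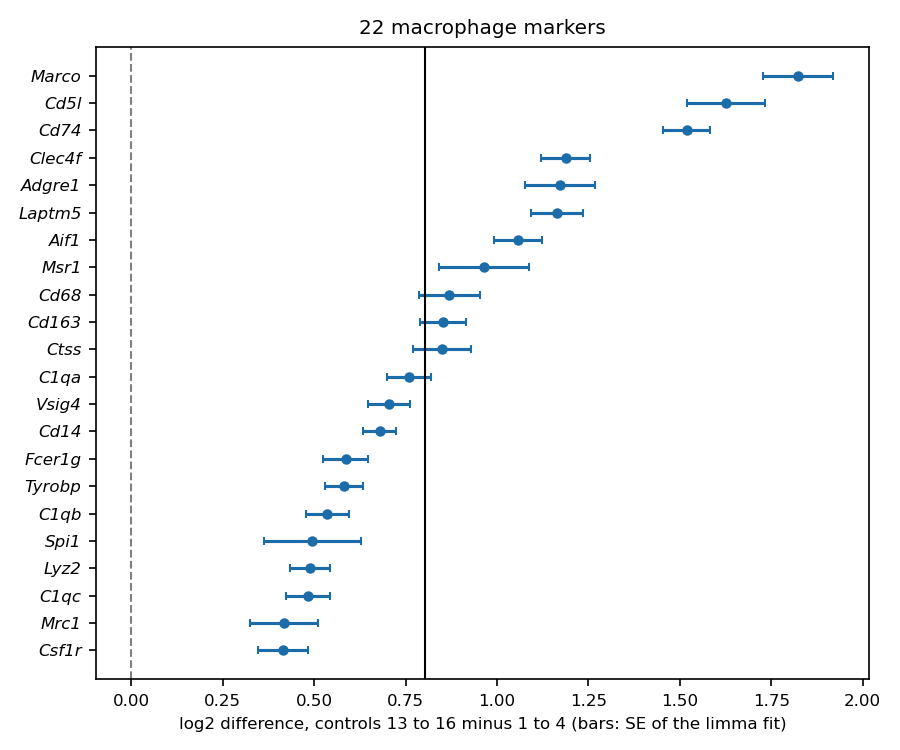
log2 difference of 22 macrophage genes (horizontal axis, controls 13 to 16 minus controls 1 to 4) with the standard error of the limma fit, the zero line dashed and the list median of 0.80 as a solid line. All 22 lie to the right of zero, from Csf1r at 0.42 to Marco at 1.82.

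Other cell types were less uniform than the macrophage genes, although endothelial genes leaned the same way. Of 10 endothelial genes tested 5 were called higher, among them Lyve1 by 1.16 ± 0.08 (limma, adjusted p = 0.00025), and 0 lower, against 19.8% and 12.1% of all genes tested. Their median difference was 0.27. With quantile normalisation 4 were higher and 0 lower, against 12.9% and 17.5% of all genes tested. With normexp 1 was higher and 0 lower, against 0.48% and 0.11%. Stellate cell genes split, with 5 of 17 higher and 5 lower, against 19.8% and 12.1% of all genes tested. Dcn, decorin, rose by 0.87 ± 0.06 and Tagln fell by 0.72 ± 0.05 (limma, adjusted p = 0.00024 and 0.00021). The summed signal of the stellate list was 513 to 545 in controls 1 to 4 and 505 to 530 in controls 13 to 16, which overlap. Sums did not overlap and were higher in controls 13 to 16 for endothelial cells (272 to 326 against 338 to 388), cholangiocytes (154 to 159 against 200 to 218), red blood cells (18.1 to 21.8 against 23.9 to 30.6) and neutrophils and mast cells (1.6 to 2.02 against 2.56 to 3.30). A sum weighs its brightest members most, and the calls of single genes were mixed, against 19.8% higher and 12.1% lower over all. Of 10 cholangiocyte genes tested 2 were called higher and 3 lower (median difference 0.03). Red blood cell genes had 2 of 6 higher and 1 lower (median 0.28). Neutrophil and mast cell genes had 1 of 5 higher and 0 lower (median −0.21). A higher sum was not particular to these cell types. Most hepatocyte lists had one without overlap, such as cytochromes P450 of families 1 to 3 (6262 to 7044 against 8568 to 9027). So did the cytoskeleton, adhesion and matrix list (14262 to 15863 against 15879 to 17798). Of its 38 genes, however, 9 were called higher and 14 lower (median −0.05). Genes of other organs were lower without overlap (61.1 to 67.6 against 49.9 to 53.7). The parts of the other cell types in other differences between the sets were not tested.

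Several hepatocyte lists leaned the same way as the macrophage genes, by less. The shares over all genes tested were 19.8% higher and 12.1% lower, and 12.9% and 17.5% under quantile normalisation. Of 28 coagulation and complement genes 20 were called higher and 0 lower (median 0.40, and 0.19 with 14 higher and 0 lower under quantile normalisation). With normexp 0 of the 28 were called, where 0.48% of all genes tested were called higher. On the arrays with SQ1 alone 27 were higher and 0 lower, against 38.6% and 15.2% of all genes tested. On those with pravastatin alone 9 were higher and 1 lower, against 12.6% and 17.7%. Of 14 plasma carriers tested 10 were higher and 0 lower (median 0.36), but 3 were higher and 1 lower under quantile normalisation (median 0.09). Acute phase genes had 10 of 14 higher and 0 lower, but 4 higher and 2 lower under quantile normalisation (median −0.02). Apolipoprotein and lipoprotein genes had 10 of 16 higher and 0 lower, but 2 and 2 under quantile normalisation. Of 31 cytochromes P450 of families 1 to 3 tested 20 were higher and 3 lower, under quantile normalisation 15 and 3, and with normexp 1 and 0. Cyp2e1 rose by 1.36 ± 0.06 and Cyp3a23-3a1, the dexamethasone-inducible enzyme, fell by 1.05 ± 0.08 (limma, adjusted p = 3.5e-05 and 0.00029). Among bile acid genes Slc27a5, the bile acid ligase, read 6.79 to 7.04 in controls 1 to 4 and 8.71 to 8.76 in controls 13 to 16, a rise of 1.85 ± 0.06 (limma, adjusted p = 1.2e-05). Among phase II enzymes Ugt2b15 rose by 1.44 ± 0.05 and Sult2a2 fell by 0.98 ± 0.06 (limma, adjusted p = 1.8e-05 and 0.00018). Cell cycle genes had 2 of 20 higher and 4 lower, near the 31.9% called over all genes.

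Few genes were called for the dye of the untreated RNA, although 2972 of 20408 had an unadjusted p under 0.05 (limma). Between the 4 controls in A555 and the 4 in A647 the same fit called 124 of 20408 genes (0.608%), 104 higher in A647. The largest were dim, and 8 of the 10 named as higher in A647 were well above background in no A555 measurement, so they passed the filter only through A647 and have only bounds. Hesx1, a homeobox gene, was at least 5.64-fold higher in A647, Or1e1 at least 4.12-fold and Prb3 at least 2.66-fold. Rin1 and Grin3b were well above background in no A647 measurement, with bounds of at least 1.07-fold and at least 1.12-fold lower. Adh6a, Gpc2 and Pyy were lower in A647 by 0.77 to 1.05 (log2, limma, adjusted p of 0.048 or less). Gapdhs was called lower by 0.42, but was well above background in 5 A555 and 2 A647 measurements. It thus passed the filter only through A555, and its sign turned with normexp and quantile normalisation. Among 17066 genes well above background in all 16 measurements 15 were called, and of the 22 macrophage genes 0 were called for dye. Leaving out control 3, 15, 16, 13 or 14 gave 54, 56, 47, 72 or 75 calls.

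Within dye, the spread over controls was small for most genes. Over 10252 named genes well above background in all 16 measurements the median SD was 0.14 (log2), and 95% were below 0.42. Of the 10 with the largest spread, 8 were genes that separated the 2 control sets. The other 2 were set apart by control 1. Lrrc24, a leucine-rich repeat gene, read 3.88 in control 1 and −1.04 to 0.62 in the other 7 controls. Cavin2, a caveolar coat protein, read 1.95 in control 1 and 4.64 to 5.98 in the others.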

How the data were processed

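Untreated and treated RNA (500 ng, amplified once with aminoallyl label, per the labels) shared 16 two-colour arrays. The deposited scanner files hold intensity values of Agilent Feature Extraction 10.7.1.1 with annotation of rn4, per the file headers. The authors' processed signal, an intensity, was already background-subtracted, detrended and dye-normalised per the file headers, which uses both channels, so the treated RNA can touch it. Control spots and spots marked non-uniform or population outlier were left out. A gene took its brightest probe, and symbols came from RefSeq (GRCr8) by accession for 17998 of 30367 probes. Percentiles were averaged over the 2 arrays of a control. For tests, log2 of the deposited signal was centred on the channel median, and genes well above background in at least 4 of 16 measurements were fitted with limma 3.58.1 (R 4.3.3; terms for control set and dye; Benjamini-Hochberg adjusted p under 0.05). The fit was tested on simulated data. Bounds set the bright mean against the lowest signal counted as well above background on each array and carry no test. The array number limits precision. Alternatives changed the normalisation, background correction, filter, probe rule, arrays and controls. The text names the 30 brightest genes, the 6 markers, the brightest and dimmest of each list, and up to 10 genes per direction and test. Some genes that this rule takes are not reported here. Members and lists were chosen with earlier results of these data known.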

Additional observations from a re-analysis of the deposited data

Results flagged for a closer look

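In 22 of 322 results tested, 1 of the 8 controls lay far from the others (Dixon's test at the 95% level, which chance passes in about 1 of 20 groups); 9 of these were at control 1 and 5 at control 16. Values are percentiles. Control 1 was low for Apoa1 (98.3), Fetub (86.3), Slc39a14 (78.8), Cavin2 (61.3), Rxra (41.5) and Syt1 (4.77). It was high for Lrrc24 (72.6), Cyp2g1 (13.4) and the median of the periportal genes (89.8). Control 16 was high for Tbp (78.0), Sult1c2 (60.1), Cyp11b1 (19.4) and Myl1 (16.9) and low for Slc25a15 (10.1). Control 3 was low for Bgn (90.1) and Birc5 (52.7). Control 13 was high for Cyp24a1 (18.1) and Ncr1 (21.4), and control 14 was high for Hbb-bs (18.6) and low for Slc5a1 (22.4). Control 2 was high for Prss1 (18.4) and control 4 for Tpsb2 (27.6). Why these controls stood apart was not tested.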

How the results depend on the processing

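Genes differing between the control sets numbered 6511. They numbered 121 with normexp, 10977 on the arrays with SQ1, 6168 on those with pravastatin, 196 within A555 and 1311 within A647, where fewer controls entered. With SQ1 7883 were higher in controls 13 to 16 and 3094 lower, and with pravastatin 2565 were higher and 3603 lower. Leaving out 1 control gave 4008 to 6755. Genes differing by dye numbered 124. They numbered 0 with normexp (2972 at an unadjusted p under 0.05 in the reported limma fit), 198 with normexp and quantile normalisation, 61 on the arrays with pravastatin, 15 among genes well above background in all 16, 76 with no term for control set, and 7 within each set. Leaving out 1 control gave 47 to 118. Macrophage genes called numbered 22, with 5 under normexp and 6 within A555, and 20 to 22 leaving out 1 control. With the 2 arrays of a control kept apart and a replicate block for the control, 7895 genes differed between sets and 504 by dye, at an estimated correlation of −0.11. RT1-Bb reversed to −1.18 with the median of its probes, and Gapdhs to 0.0036 with normexp and quantile normalisation. The cause of other changes was not tested. Percentiles moved by less than 1 SD for 166 of 255 genes with normexp and for 166 with plain subtraction of the local background. With the median of the probes 224 did so, and on the arrays of either drug alone 242. Leaving out 1 control, or keeping 4 of the 8, cannot move a mean by 1 SD, so those comparisons decide nothing. Low signal limits dim genes, for which normexp gave smaller differences.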
